A study of Rattus norvegicus with 18 samples.

Results

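The 8 genes followed here are the selectins Sele and Selp, the immunoglobulin-type adhesion molecules Icam1, Icam2, Vcam1 and Pecam1, the junction cadherin Cdh5, and Vwf, the gene of von Willebrand factor. They were chosen by name, as the non-control probes whose gene name, or whose listed accession, belongs to 1 of these genes, and not by their measured values. The rule found 10 probes on 19 spots, of 41012 probes under 35279 gene names on the array. Proximal sciatic nerve, the stump that stays joined to the spinal cord, was taken from adult male Sprague-Dawley rats in which 1 cm of the left nerve had been resected. The control group was 0 h, and the other 5 groups were taken at 0.5 h or 1 h, at 3 h, or at 6 h or 9 h after resection, each group with 3 Agilent arrays of 1 colour, 18 in all. All groups had the same anaesthetic mixture of trichloroacetaldehyde monohydrate, magnesium sulfate and sodium pentobarbital, and the labels name no transgene. Whether the RNA on an array came from 1 animal or from several is not said in the labels, so the P-values measure the spread between these arrays only. A piece of 0.5 cm of whole nerve holds vessels together with Schwann cells, fibroblasts and blood cells, so fewer cells of a type and less RNA per cell cannot be told apart.

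These genes build the adhesion steps by which blood cells leave a vessel. Endothelial cells store P-selectin (Selp) and von Willebrand factor in Weibel-Palade bodies and make E-selectin (Sele) anew when cytokines act on them. The selectins hold rolling leukocytes by their sugars, ICAM-1, ICAM-2 and VCAM-1 bind leukocyte integrins for firm arrest, and PECAM-1 and VE-cadherin (Cdh5) sit at the junctions through which the cells pass. P-selectin and von Willebrand factor are also kept in the granules of platelets, and ICAM-1 is made by many cell types besides endothelium.

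The probes are 60 bases long and lie, on the rat build that the files use (rn4), at chr13:79822442-79822501 on the plus strand for Sele, at chr13:79922078-79922137 on the plus strand for Selp, at chr8:20051730-20051789 on the plus strand for Icam1 and at chr2:212277695-212277754 on the minus strand for Vcam1. Icam2 lies at chr10:95775052-95775111 and Pecam1 at chr10:96057717-96057776, both on the minus strand. Cdh5 has a probe at chr19:779103-779162, which stands for the gene because it was the brighter one, and a second probe whose positions span chr19:788852-790286, a stretch longer than the probe. Vwf has a probe spanning chr4:161853997-161854486, which stands for the gene, and a dim second probe at chr4:161809533-161809592. No gene model of this build was at hand, so exon and UTR are not given. The first 30 bases of the probes that the results turn on are shown, 5′ to 3′, with both Cdh5 probes because they differed in the tests.
Sele: aaagtgtcccaacttctgaattaactcgtt
Selp: agcagggaaggtcctcctttcggtattttg
Icam1: aatatggacgctcacctttagcagctcaac
Vcam1: acggggacgtgtttcttcatcaggatcttg
Cdh5, probe standing for the gene: ctgtcccttcaaaactgccaagcaaaactg
Cdh5, second probe: accgtaatgagggtatcatcaaacccacaa

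Sequence before the start of 3 of the 8 genes was held in a RefSeq table of rat promoters on GRCr8. Icam1 and Vcam1 are shown because they are the classic cytokine-driven pair of the list. Capitals mark matches on either strand to GGGNTTNCC or GGAAATTCC, letters of NF-κB type sites, and to TATAAA, searched in the 250 bases before the start. Of 33469 such windows, 4.04% held the first, 0.287% the second and 12.9% the third. For Vcam1 the 150 bases before the start (chr2:206742784-206742933, minus strand) hold 2 matches to the first motif, which begin 108 and 93 bases before the start, and 2 overlapping matches to TATAAA. For Icam1 only the 93 bases that lie before the annotated gene are shown (chr8:27829595-27829687, plus strand). They hold the match to GGAAATTCC, 218 bases before the start that the table uses, while its TATAAA match begins 53 bases before that start, within the annotated gene. The window of Sele held no match and lay wholly within the annotated gene, so it is not shown. These letters were chosen after the sequences had been read, and a match describes the letters only.
Vcam1: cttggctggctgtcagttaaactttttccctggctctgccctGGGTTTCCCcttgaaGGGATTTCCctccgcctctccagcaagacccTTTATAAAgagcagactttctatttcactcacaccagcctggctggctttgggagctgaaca
Icam1: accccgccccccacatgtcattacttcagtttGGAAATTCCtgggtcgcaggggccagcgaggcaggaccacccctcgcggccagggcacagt

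Values are log2 normalized signals, the log2 processed signal of a probe minus the 75th percentile of its array, so that 0 is the level of that percentile and 1 unit is a 2-fold difference. Levels of different probes are not set against each other. A gene was called where limma's moderated test passed both thresholds, 0.01 for the unadjusted P-value and 0.05 for the P-value adjusted by Benjamini-Hochberg over all 32111 tested probes. All probes of the 8 genes were well above background on all 18 arrays except that of Selp. Arrays of 1 time-point correlated at 0.976 to 0.992 over the probes. The scanner files of 0 h and 0.5 h carry 1 scan day and the later ones another, apart from replicate 3 of 9 h with a day of its own, so from 1 h on a difference from 0 h and a difference of scan day cannot be told apart. Contrasts with 1 h were therefore given beside those with 0 h. No slide held arrays of more than a single time-point. In every contrast, also those with 1 h, a difference of time and a difference of slide cannot be told apart.

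Icam1 was higher from 1 h and Selp from 3 h, both up to 9 h, Sele was high at 1 h, back at its starting level at 3 h and high again at 6 h, and the constitutive endothelial genes Icam2, Pecam1, Cdh5 and Vwf were not called against 0 h at any time-point. Over the 6 time-points the F-test called 4 of the 8 genes, Sele, Selp, Icam1 and Vcam1, beside 34.6% of the 27199 gene names tested. Against 0 h it was 0 of 8 after 0.5 h (6.00% of all gene names) and 3 of 8 after 1 h (5.63%), or 2 of 8 without Selp, which was then well above background on 1 of 3 arrays and at 0 h on 0 of 3. Later it was 2 of 8 after 3 h (14.0%), 3 of 8 after 6 h (25.0%) and 2 of 8 after 9 h (31.1%). Every call of a member against 0 h was a rise, and gene names called higher made up 3.59% after 1 h, 7.15% after 3 h, 12.0% after 6 h and 15.8% after 9 h. At 9 h the share of members called was below the 31.1% of gene names called in either direction, and above the 15.8% called higher. At 0.5 h, where no member passed both thresholds, Selp had an unadjusted P-value of 0.00591 (adjusted P = 0.0745, limma).

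**Figure D1:**
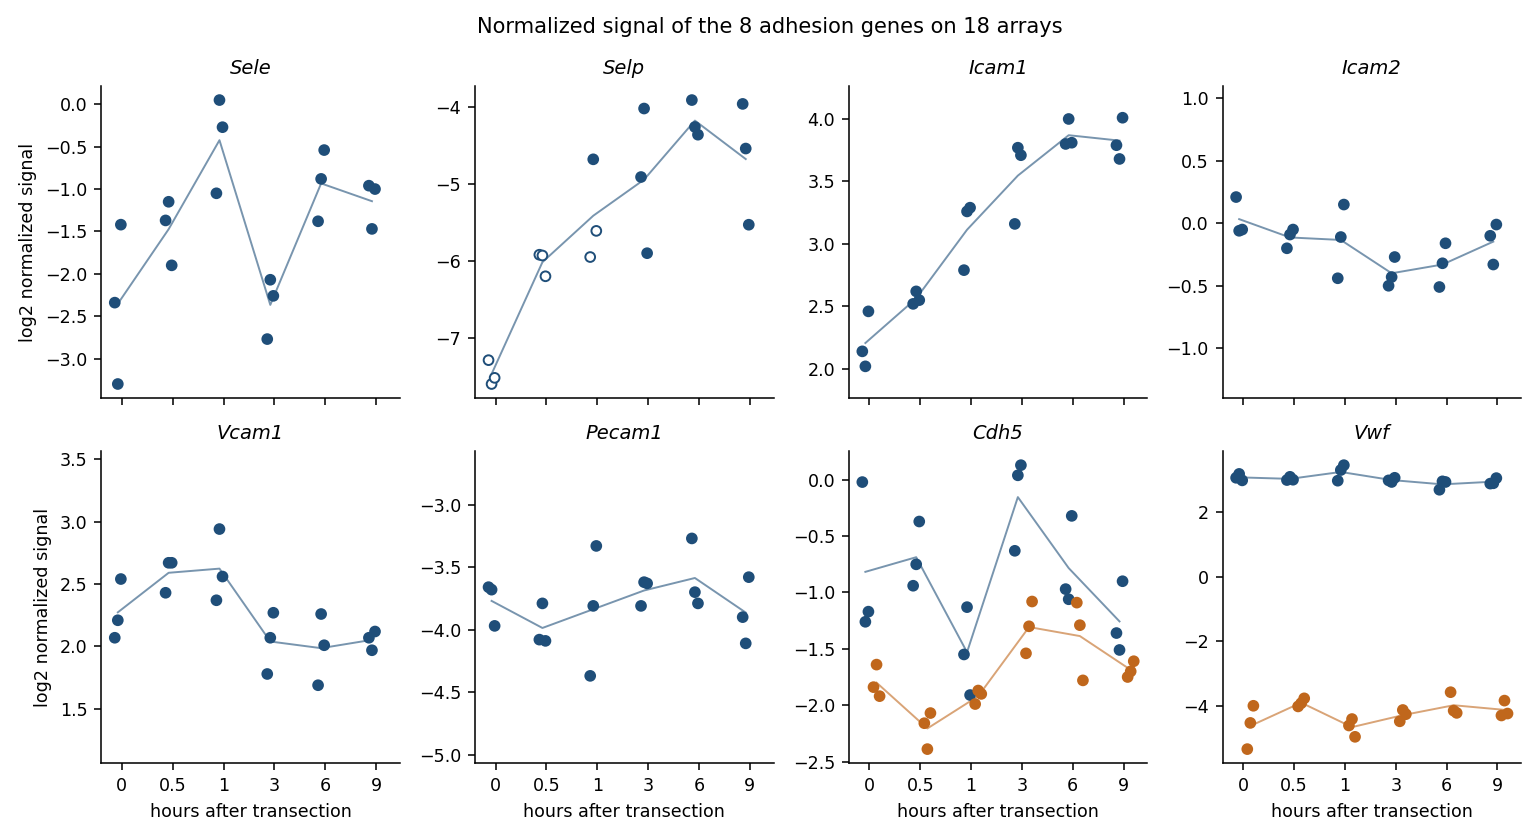
Log2 normalized signal of each gene (y axis, a scale of its own in each panel) on 3 arrays at each of 6 time-points (x axis, hours after transection in order, not to scale). Points are arrays, lines join the means, open points were not well above background, and orange marks the second probe of Cdh5 and Vwf, whose height is not comparable with the first. Icam1 climbs to 6 h, and Selp is highest at 6 h among the time-points whose points are all filled. Sele has a dip at 3 h, and Icam2, Pecam1 and the brighter Vwf probe stay within a narrow band.

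E-selectin, which endothelium makes when activated, had its highest mean at 1 h and was near its 0 h level at 3 h. At 0 h the arrays of Sele read -2.34, -3.30 and -1.42, and at 0.5 h they read -1.37, -1.15 and -1.90. At 1 h they read -1.05, 0.05 and -0.27, all above every array of 0 h and 0.5 h. At 3 h the values were -2.77, -2.07 and -2.26, below all arrays of 0.5 h, 1 h, 6 h and 9 h and inside the range of 0 h. At 6 h they were -1.38, -0.88 and -0.54, and at 9 h -0.96, -1.47 and -1.0. Both late groups overlapped each other and 0.5 h. In order of the mean the time-points ran 3 h, 0 h, 0.5 h, 9 h, 6 h and 1 h, and each neighbour in this order overlapped the next. Between 0 h and 0.5 h the difference of 0.88 was smaller than the larger SD of 0.94.

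The rise of Sele at 1 h was 1.93 ± 0.41 on the log2 scale (SE, 3.8-fold, adjusted P = 0.016, limma). The fall from 1 h to 3 h, between arrays of the same scan day, was of the same size, -1.94 ± 0.41 (adjusted P = 0.00891), in a contrast in which 2 of the 8 genes and 10.2% of all gene names were called. At 3 h the difference from 0 h was -0.02 (95% interval -0.90 to 0.87). At 6 h Sele was again above 0 h, by 1.42 ± 0.41 (2.67-fold, adjusted P = 0.0209), and at 9 h the rise of 1.20 had an adjusted P of 0.0354 with an unadjusted P of 0.0111, which missed the stricter threshold. The second rise taken by itself, 6 h against 3 h, was 1.43 ± 0.41 (unadjusted P = 0.0037, adjusted P = 0.0606, limma) and was not called. In that contrast, added after the values were seen, 0 of the 8 genes and 5.36% of all gene names were called.

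The calls of Sele against 0 h, where the arrays spread over nearly 2 units, were lost on leaving out single arrays. Without replicate 2 of 0 h, the lowest array, the rise at 1 h was 1.45 (adjusted P = 0.0632) and that at 6 h was 0.94 (adjusted P = 0.1). The early rise was not called either when replicate 2 (1.69, adjusted P = 0.0507) or replicate 3 of 1 h (1.85, adjusted P = 0.0592) was left out. Nor was the late rise without replicate 1 of 0 h (1.42, adjusted P = 0.0476), replicate 2 of 6 h (1.39, adjusted P = 0.0543) or replicate 3 of 6 h (1.22, adjusted P = 0.0746). Both were lost as well with normexp and from the arrays of the contrast alone. Over all alternatives the adjusted P of the rise at 1 h lay between 0.00559 and 0.143, and that of the rise at 6 h between 0.00419 and 0.134. Without replicate 3 of 0 h, or without replicate 1 of 1 h, the rise at 9 h was called too (1.67, adjusted P = 0.00675, and 1.20, adjusted P = 0.0307, range over the alternatives 0.00675 to 0.197), as it was with array weights, with a trend and robust prior, under the filter that asks all 18 arrays to be above background, and with normexp without 2 arrays. The fall from 1 h to 3 h was called whichever array was left out (-2.26 to -1.71), and it was not with normexp background correction (-1.20, adjusted P = 0.363) or from the arrays of the contrast alone (-1.94, adjusted P = 0.0523).

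P-selectin, the stored selectin of platelets and endothelium, started below the reach of its probe. At 0 h Selp read -7.29, -7.60 and -7.52 and at 0.5 h it read -5.92, -5.93 and -6.20, and none of these 6 arrays was well above background. At 1 h it read -5.95, -4.68 and -5.61, and of these replicate 2 was well above background. From 3 h on all 9 arrays were. They read -4.91, -4.02 and -5.90 at 3 h, then -3.91, -4.26 and -4.36 at 6 h, and lastly -3.96, -4.54 and -5.53 at 9 h. All 6 h arrays lay above replicate 2 of 1 h, the array of that time-point that was well above background. Among the time-points measured on all arrays, the mean of Selp was highest at 6 h, followed by 9 h, then 3 h, with overlap between neighbours, and the readings of the earlier time-points are not put in order.

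Since the probe was not well above background at 0 h, the size of the rise has a lower bound only. The bound took, on each 0 h array, the lowest level of any probe well above background, which gave a mean of -6.51. Selp was at least 2.96-fold higher at 3 h and at least 5.02-fold higher at 6 h. The bound for 9 h was at least 3.56-fold. No bound is given for 1 h, where 1 of 3 arrays was well above background. The probe entered the test only through the time-points from 3 h on, where it is high, which favours a difference from 0 h. Log2 differences in the measured signals do not give the size of the rise, and their P-values share this limit of the filter. The difference from 0 h was 2.52 for 3 h (adjusted P = 0.00216). It was 3.29 for 6 h (adjusted P = 0.00017) and 2.79 for 9 h (adjusted P = 0.000404), each with an SE of 0.45. For 1 h it was 2.05 (adjusted P = 0.018), between readings that were well above background on 1 of 3 arrays at 1 h and 0 of 3 at 0 h, so that neither its size nor its call measures a level. Against 1 h, within a scan day, the later rise was not called (1.23 at 6 h, adjusted P = 0.0564). The call at 1 h was lost without replicate 2 of 0 h (1.99, adjusted P = 0.064), replicate 3 of 0 h (2.03, adjusted P = 0.0561) or replicate 2 of 1 h (1.69, adjusted P = 0.0557), and its adjusted P ranged from 0.00809 to 0.405 over the alternatives. Quantile normalization (1.64, adjusted P = 0.116), the deposited log2 matrix (1.57, adjusted P = 0.126) and normexp background correction, with all arrays (1.20, adjusted P = 0.405) or without the 2 arrays named next (0.51, adjusted P = 0.091), also ended it. The size of the Selp rise depended on how background was treated. With normexp all calls of Selp against 0 h were lost, with 1.53 at 3 h (adjusted P = 0.175), 0.88 at 6 h (adjusted P = 0.62) and 0.60 at 9 h (adjusted P = 0.773). That setting left the dim probes of replicate 2 of 1 h and of 3 h above those of the other arrays. Without those 2 arrays, a choice made after the values were seen, the 6 h and 9 h rises were called with normexp and that of 3 h was not (0.60, adjusted P = 0.0523).

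Conversely the difference of 1.45 at 0.5 h, measured within 1 scan day between arrays none of which was well above background, passed both thresholds without replicate 2 of 3 h (adjusted P = 0.0494), replicate 3 of 3 h (adjusted P = 0.0423) or replicate 3 of 9 h (adjusted P = 0.0427). The block for scan day marked only replicate 3 of 9 h, so it is the same fit as leaving that array out. A fit of the 6 arrays of these groups alone gave a call as well (adjusted P = 0.00709). The adjusted P of this difference ran from 0.00709 to 1 over the alternatives. The lowest level well above background was itself higher at 0.5 h (-5.59 to -5.07) and 1 h (-5.75 to -5.37) than at 0 h (-6.76 to -6.33), and its part in the early differences of Selp was not tested. Against 1 h, the difference at 6 h passed the thresholds without replicate 2 of 1 h (1.60, adjusted P = 0.0251), replicate 2 of 3 h (adjusted P = 0.0336), replicate 3 of 3 h (adjusted P = 0.0305) or replicate 3 of 9 h (adjusted P = 0.0355), and with a block for replicate number, in a range of 0.0251 to 0.721. At 9 h it passed with array weights (1.31, adjusted P = 0.00839).

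ICAM-1, the ligand of leukocyte β2 integrins, gave the steadiest rise, measured on 10 spots an array. Icam1 read 2.14, 2.02 and 2.46 at 0 h and 2.52, 2.62 and 2.55 at 0.5 h. At 1 h it read 2.79, 3.26 and 3.29 and at 3 h 3.16, 3.77 and 3.71. At 6 h it read 3.80, 4.0 and 3.81, and at 9 h 3.79, 3.68 and 4.01. The groups of 0 h, 0.5 h and 1 h did not overlap one another, and from 1 h on each array lay above all 6 arrays of 0 h and 0.5 h. The 6 h arrays lay above all of 3 h, while 9 h overlapped both. Its mean was lowest at 0 h, then 0.5 h, 1 h and 3 h, and highest at 6 h, with 9 h just below, and from 1 h on each neighbour overlapped the next.

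After 1 h Icam1 was 0.91 ± 0.18 above 0 h (log2, SE, 1.88-fold, adjusted P = 0.00902, limma). The rise reached 1.34 by 3 h (2.53-fold, adjusted P = 0.000232), 1.66 by 6 h (3.17-fold, adjusted P = 2.11e-05) and 1.62 by 9 h (3.07-fold, adjusted P = 2.07e-05). The difference at 0.5 h was 0.36 (adjusted P = 0.256). Within the second scan day it rose from 1 h to 6 h by 0.76 (adjusted P = 0.00649), in a contrast in which 3 of the 8 genes and 24.0% of all gene names were called. From 1 h to 9 h it rose by 0.71 (adjusted P = 0.0082), where 2 of the 8 genes and 25.4% of all gene names were called. Among second-day arrays alone that last difference was 0.62 (adjusted P = 0.0803, range over the alternatives 0.000663 to 0.0803), and from the arrays of the contrast alone it was not called either (adjusted P = 0.0532). Each call of Icam1 against 0 h was kept whichever array was left out, and with normexp the call at 1 h was lost (0.80, adjusted P = 0.0635). From 1 h to 3 h the difference was 0.43 (adjusted P = 0.144), and a call came when replicate 1 of 3 h was left out (0.62, adjusted P = 0.0345) or with array weights (0.55, adjusted P = 0.0454).

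VCAM-1 binds the integrin α4β1 and is, like ICAM-1 and E-selectin, a textbook target of inflammatory cytokines. Its mean was highest at 1 h and lowest at 6 h. Vcam1 read 2.07, 2.21 and 2.54 at 0 h, 2.43, 2.67 and 2.67 at 0.5 h, then 2.37, 2.94 and 2.56 at 1 h. It read 1.78, 2.07 and 2.27 at 3 h, 1.69, 2.26 and 2.01 at 6 h, then 2.07, 1.97 and 2.12 at 9 h. The 9 arrays of 3 h to 9 h lay below all 6 arrays of 0.5 h and 1 h, and those of 0 h overlapped both sets. In order of the mean the time-points ran 6 h, 3 h, 9 h, 0 h, 0.5 h and 1 h, with overlap between all neighbours.

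Against 0 h none of the differences of Vcam1 was called. The early ones were 0.32 for 0.5 h (adjusted P = 0.328) and 0.35 for 1 h (95% interval -0.04 to 0.74). The later ones were -0.23 for 3 h, -0.29 for 6 h (95% interval -0.68 to 0.10) and -0.22 for 9 h. The gene was called in the F-test (adjusted P = 0.0251) and its difference from 1 h was -0.64 ± 0.18 for 6 h (adjusted P = 0.0196) and -0.57 for 9 h (adjusted P = 0.0312). At 3 h the difference from 1 h of -0.58 was not called (unadjusted P = 0.00641, adjusted P = 0.0575). Leaving out replicate 1 of 1 h gave a call (-0.71, adjusted P = 0.0442), as did leaving out replicate 1 of 6 h (-0.58, adjusted P = 0.0457), in a range of 0.0217 to 0.203. It was called as well with quantile normalization (adjusted P = 0.0372), with the deposited matrix (adjusted P = 0.0451), under the stricter background filter on all 18 arrays (adjusted P = 0.0408), with array weights (adjusted P = 0.041), with a trend and robust prior (adjusted P = 0.0352) and with the replicate number as a block (adjusted P = 0.0217).

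These falls of Vcam1 were small and rested on a few arrays. The fall at 6 h was no longer called without replicate 2 of 1 h (-0.48, adjusted P = 0.08) or replicate 1 of 6 h (-0.49, adjusted P = 0.0846). The fall at 9 h was no longer called without replicate 2 of 1 h (-0.41, adjusted P = 0.133), replicate 3 of 1 h (-0.60, adjusted P = 0.0478) or any of the replicates of 9 h (-0.58, -0.53 and -0.60). The block for scan day gave the same fit as leaving out replicate 3 of 9 h (-0.60, adjusted P = 0.059). Both falls were also lost with normexp, a shift to the median and the arrays of the contrast alone, the one at 6 h with array weights, and the one at 9 h among second-day arrays. The adjusted P lay between 0.00639 and 0.111 for the fall at 6 h and between 0.00971 and 0.133 for that at 9 h.

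**Figure D2:**
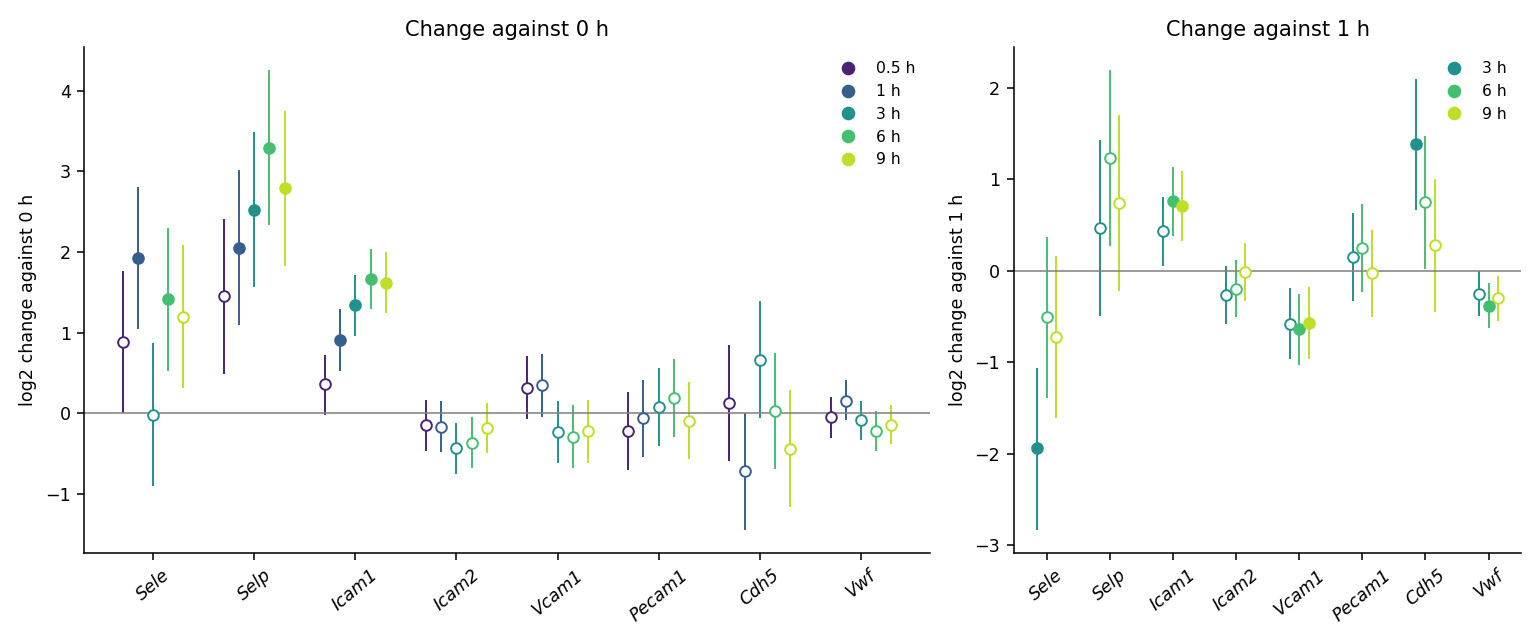
Log2 change of each gene against 0 h at 5 later time-points (left) and against 1 h at the 3 later ones (right), from limma. Bars are 95% intervals, and filled points were called (unadjusted P under 0.01 and adjusted P under 0.05). Filled points against 0 h are those of Sele, Selp and Icam1, and against 1 h Sele and Cdh5 at 3 h, Icam1 and Vcam1 at 6 h and 9 h, and Vwf at 6 h.

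Of the constitutive adhesion molecules of endothelium, Icam2 and Pecam1 gave no call in any contrast. ICAM-2, which resting endothelium carries, read between -0.51 and 0.21 over the 18 arrays, with the 3 h arrays (-0.50, -0.43 and -0.27) below all arrays of 0 h (0.21, -0.06 and -0.05). Its difference at 3 h was -0.43 ± 0.15 (unadjusted P = 0.0102, adjusted P = 0.0646) and at 6 h -0.36 (adjusted P = 0.0811), and neither was called. Leaving out replicate 1 of 1 h (adjusted P = 0.0383) or replicate 3 of 1 h (adjusted P = 0.0353) gave a call at 3 h, in a range of 0.0347 to 0.191. So did a shift to the median, which also gave a call at 6 h, the filter on all 18 arrays, array weights, a trend and robust prior and a block for replicate number. In order of the mean Icam2 ran 3 h, 6 h, 9 h, 1 h, 0.5 h and 0 h with overlap between all neighbours.

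PECAM-1, the junction molecule that migrating leukocytes bind, read between -4.37 and -3.27. Pecam1 had no contrast with an adjusted P under 0.451 and its largest difference from 0 h was -0.22 at 0.5 h (95% interval -0.70 to 0.26). Its arrays of 1 h alone (-4.37, -3.81 and -3.33) spread over nearly the whole range of the 18, and all groups of neighbouring mean overlapped.

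VE-cadherin, which seals the junctions, gave values that depended on the probe. On the probe that stands for Cdh5 the arrays read -0.02, -1.26 and -1.17 at 0 h, -0.94, -0.75 and -0.37 at 0.5 h, then -1.55, -1.13 and -1.91 at 1 h. They read -0.63, 0.04 and 0.13 at 3 h, -0.97, -1.06 and -0.32 at 6 h, then -1.36, -1.51 and -0.90 at 9 h. The 3 h arrays lay above all arrays of 1 h and 9 h, and replicate 1 of 0 h stood above the other 0 h arrays by more than 1 unit.

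Between 1 h and 3 h Cdh5 rose by 1.38 ± 0.34 (2.6-fold, adjusted P = 0.0192, limma), the call beside that of Sele in this contrast, and in the opposite direction. No difference from 0 h was called, and at 3 h it was 0.66 (adjusted P = 0.208). On the second probe the rise from 1 h to 3 h was smaller, 0.61 ± 0.16 (adjusted P = 0.0269), and that from 1 h to 6 h was 0.53 (adjusted P = 0.0255). That probe was called in the F-test (adjusted P = 0.0037), while the first missed the unadjusted threshold (unadjusted P = 0.018, adjusted P = 0.0452, limma).

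The rise of Cdh5 from 1 h to 3 h was no longer called without replicate 1 of 1 h (1.37, adjusted P = 0.0514), replicate 3 of 1 h (1.19, adjusted P = 0.0774), replicate 2 of 3 h (1.28, adjusted P = 0.0738) or replicate 3 of 3 h (1.24, adjusted P = 0.0801). Normexp and the arrays of the contrast alone ended it too. Its adjusted P ranged from 0.00681 to 0.251. Without replicate 1 of 0 h the difference at 3 h from 0 h was called (1.06, adjusted P = 0.0397, range 0.0397 to 0.503).

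Von Willebrand factor, which tethers platelets to a damaged vessel wall, stayed within 2.69 and 3.45 on the probe that stands for Vwf. The arrays read 3.06, 3.18 and 2.98 at 0 h, 2.97, 3.30 and 3.45 at 1 h, then 2.69, 2.95 and 2.93 at 6 h. Arrays of 6 h lay below those of 1 h, and those of 0 h overlapped the latter. The differences from 0 h ran from -0.22 to 0.16 and were not called. The fall from 1 h to 6 h was -0.38 ± 0.12 (adjusted P = 0.0256) and was lost without replicate 2 of 1 h (-0.35, adjusted P = 0.0698), replicate 3 of 1 h (-0.28, adjusted P = 0.0973) or replicate 1 of 6 h (-0.30, adjusted P = 0.103), in a range of 0.00497 to 0.296. It was lost as well with normexp, the deposited matrix, a shift to the median, array weights and the arrays of the contrast alone.

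Without replicate 1 of 1 h, Vwf was called against 1 h at 3 h (-0.38, adjusted P = 0.0434) and at 9 h (-0.44, adjusted P = 0.0106) too. The dim second probe gave 0.67 in the contrast of 6 h with 1 h (adjusted P = 0.0869), the opposite sign of the first, and no call in any contrast.

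The partners of these molecules on blood cells and on the vessel were read from lists. In the selectin list (ligands and the enzymes that build the sugars), 15 of 16 genes were tested and 9 were called in the F-test, beside 34.6% of all gene names. At 6 h 4 were higher and 4 lower than at 0 h (25.0% of all gene names called), with a median of 0.13 against 0.01 for all gene names, and at 9 h 5 were higher and 2 lower (31.1%). Cd44, a hyaluronan receptor that also binds E-selectin, rose 3.76-fold at 9 h (adjusted P = 2.13e-06). Fut7, the fucosyltransferase that finishes sialyl Lewis X, rose 3.01-fold at 1 h (adjusted P = 0.00505). St3gal4 rose 1.83-fold and B4galt1 1.84-fold at 9 h, both enzymes of the same sugar. The 2 lower genes at 9 h were Cd34 and Tpst1, named after their values were seen.

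Of the integrin list 9 of 10 genes were tested and 5 were called in the F-test (34.6% of all gene names). Itgb2, the β2 chain of the integrins that bind ICAM-1, rose 4.55-fold at 9 h (adjusted P = 9e-05), and Itgam, the αM chain, rose 4.07-fold at 6 h (adjusted P = 0.0223). Itgb7 rose 2.69-fold, Fermt3, the integrin activator of blood cells, 2.29-fold and Itgb1 1.29-fold at 9 h. In all 4 were higher and 2 lower at 9 h (31.1% of all gene names called), with a median of 1.04 against 0.01 for all gene names. The 2 lower genes were Itga4, the α4 chain that binds VCAM-1, and Itga9, both named after their values were seen.

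Of 17 tested genes of the junction list 9 were called in the F-test, beside 34.6% of all gene names. At 9 h 8 were lower, 1 was higher and 8 were not called, with a median of -0.17, in the contrast in which 31.1% of all gene names were called. At 1 h 0 were lower. Pvr, the poliovirus receptor homologue at endothelial junctions, was the higher one (3.62-fold at 6 h, adjusted P = 2.29e-06). Ocln, a tight junction protein, was lower at 9 h, with a change of -0.90 (adjusted P = 0.000511), as was Ptprb, the phosphatase that acts on VE-cadherin, at -0.67 (adjusted P = 0.00092). F11r, the junction adhesion molecule JAM-A, was lower at 3 h, with a change of -0.64 (adjusted P = 0.0271). These junction genes are also made by perineurial and Schwann cells, and their cell of origin was not tested.

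Of the 9 linkers that join ICAM-1 and VCAM-1 to the cytoskeleton, 3 were called in the F-test, a share near the 34.6% of all gene names. Msn (moesin) rose by 0.62 and Ezr (ezrin) by 0.53 at 9 h, while Rhog was lower at 0.5 h, with a change of -0.43 (adjusted P = 0.0227). At 9 h, also near the share of all gene names (31.1%), 2 were higher and 1 lower, Rdx (radixin), which was named after its value was seen, and the median was 0.05.

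Of 16 tested inducers and relays of endothelial activation 11 were called in the F-test (34.6% of all gene names). At 3 h 10 were higher and 0 lower, beside 7.15% of all gene names called higher, and at 9 h 10 were higher and 0 lower, beside 15.8%, with a median of 0.71 at both and of 0.00 and 0.01 for all gene names. Il1b, an inducer of E-selectin and ICAM-1, rose 21.6-fold at 6 h (adjusted P = 1.31e-06). Il1a, not well above background at 0 h, was at least 7.87-fold higher at 6 h. Nfkbia, the inhibitor of NF-κB that NF-κB itself induces, rose 3.54-fold at 1 h (adjusted P = 0.000332), Il1r1 4.07-fold and Tnfrsf1b 3.02-fold at 9 h. At 1 h, where Sele was at its highest, 3 of 16 were higher, beside 3.59% of all gene names, and these were Il1b, Nfkbia and Irf1, the last named after its value was seen.

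Of 7 tested partners of von Willebrand factor 2 were called in the F-test, a share below the 34.6% of all gene names. Thbs1, thrombospondin of platelets and other cells, rose 6.79-fold at 9 h (adjusted P = 0.000124), and F8, the clotting factor that von Willebrand factor carries, was lower at 6 h, with a change of -0.26 (adjusted P = 0.0267). At 6 h 2 were higher and 1 lower, beside 25.0% of all gene names called.

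Vessel and blood cell markers were then set beside the members. Of 24 other endothelial markers, all tested, 3 were higher and 5 lower at 9 h, a share near the 31.1% of all gene names called. Their mean level on an array lay between 0.17 and 0.27 at 0 h and between -0.07 and 0.44 over the later arrays. Nos3, the endothelial nitric oxide synthase, rose 3.13-fold at 6 h (adjusted P = 0.000159), Flt1, a VEGF receptor, rose 2.82-fold at 3 h, and Eng, a TGF-β co-receptor, 2.11-fold at 9 h. Emcn, endomucin, was lower at 6 h (-1.03, adjusted P = 3.35e-05), and Mmrn2 at 9 h (-0.92). Of the 6 tested markers of venular or activated endothelium, 2 of which are Sele and Selp themselves, Csf2rb rose 3.55-fold at 9 h (adjusted P = 0.00146), Thbd, thrombomodulin, rose 1.31-fold at 3 h, and Lrg1 gave 0.62 at 9 h, which was not called (adjusted P = 0.0392).

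Leukocytes are the cells that these adhesion molecules hold. Of 11 tested neutrophil markers 3 were higher at 0.5 h, where 6.00% of all gene names were called in either direction. At 1 h 4 of the markers were higher (3.59% of all gene names called higher), and 9 were at each time-point from 3 h on (7.15%, then 12.0% and 15.8%). Their mean level on an array lay between -6.19 and -5.76 at 0 h, between -4.21 and -3.58 at 1 h, and between -2.27 and -1.57 at 9 h. Of the 11, 4 were well above background on all 3 arrays at 0 h, 6 at 1 h and 11 at 9 h, so the early means include background readings. S100a8 rose 69.5-fold and S100a9 43.3-fold at 9 h, Mmp8 was at least 29.8-fold higher at 3 h, and Cxcr2, well above background on 1 of 3 arrays at 0 h, had a mean of -2.16 at 6 h beside a measured mean of -6.93 at 0 h (adjusted P = 3.07e-05). Their part in the values of Selp, Icam1 and the integrins was not tested. Of 14 macrophage and monocyte markers 6 were higher and 1 lower at 9 h (31.1% of all gene names called), with array means of 1.17 to 1.35 at 0 h and 1.81 to 2.22 at 9 h. Among these Cd14 rose 4.44-fold, Ccr2 4.04-fold, Lyz2 3.02-fold and Cd163 2.93-fold.

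Platelets carry P-selectin and von Willebrand factor as well. Of 8 tested platelet and megakaryocyte markers, 1 was called in the F-test (34.6% of all gene names), and 4 were higher at 6 h and 1 at 9 h, where 12.0% and 15.8% of all gene names were called higher. Ppbp, a platelet chemokine, well above background on 2 of 3 arrays at 0 h, had a mean of -3.92 at 6 h beside a measured mean of -6.03 at 0 h (adjusted P = 0.00223). Array means of the list lay between -2.12 and -0.35 at 6 h, beside -2.93 to -2.07 at 0 h. At the other time-points all array means lay above those of 0 h, with -1.53 to -1.25 at 0.5 h and -1.48 to -1.38 at 1 h. The values were -1.84 to -1.03 for 3 h, and for 9 h -1.71 to -1.55. Their part in the rise of Selp was not tested. The 5 tested erythroid markers gave no call in any contrast with 0 h, with array means of -0.95 to 1.27 at 0 h. At 0.5 h (1.53 to 2.23) and 1 h (1.31 to 2.05) all lay above those of 0 h, and later they lay between 0.58 and 3.06. Their part in the early values of Sele and Selp was not tested.

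The tissue around the vessels changed between arrays too. Skeletal muscle markers gave 0 calls of 8, but their array means lay between 1.90 and 6.88 at 0 h and between -3.69 and 4.69 later. The spread was wide at 0 h and within every time-point from 1 h on. Their median change from 0 h ran from -4.42 at 1 h to -1.79 at 0.5 h. The 5 tested adipocyte markers gave 0 calls, with array means of 0.46 to 1.81 at 0 h, of 1.95 to 2.36 at 0.5 h, all above the 0 h arrays, and of 0.93 to 2.28 later. Schwann cell markers, which check the labelled tissue, were well above background on all 18 arrays for 14 of 14 genes, with array means of 2.69 to 3.30. Of these, Egr2 rose 2.7-fold at 1 h and Ngfr 1.96-fold at 9 h, and Mag (-0.90), Pmp22 (-0.60) and Cdh19 (-0.60) were lower at 9 h.

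Of 8 fibroblast and perineurium markers 7 were lower at 9 h, where 31.1% of all gene names were called in either direction, among them Col3a1 (-0.63), Lum (-0.59), Col1a2 (-0.55), Col1a1 (-0.50) and Dcn (-0.45), all matrix genes. Of 8 pericyte and smooth muscle markers 2 were lower at 9 h, a share below that background. Rgs5, a pericyte gene, was lower at 9 h (-1.04, adjusted P = 2.31e-05), and Cspg4 at 6 h (-0.68). Pdgfrb was lower at 3 h (-0.34), while Kcnj8 rose 1.35-fold at 1 h. The part of muscle, fat and other tissue in the values of the 8 genes was not tested.

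**Figure D3:**
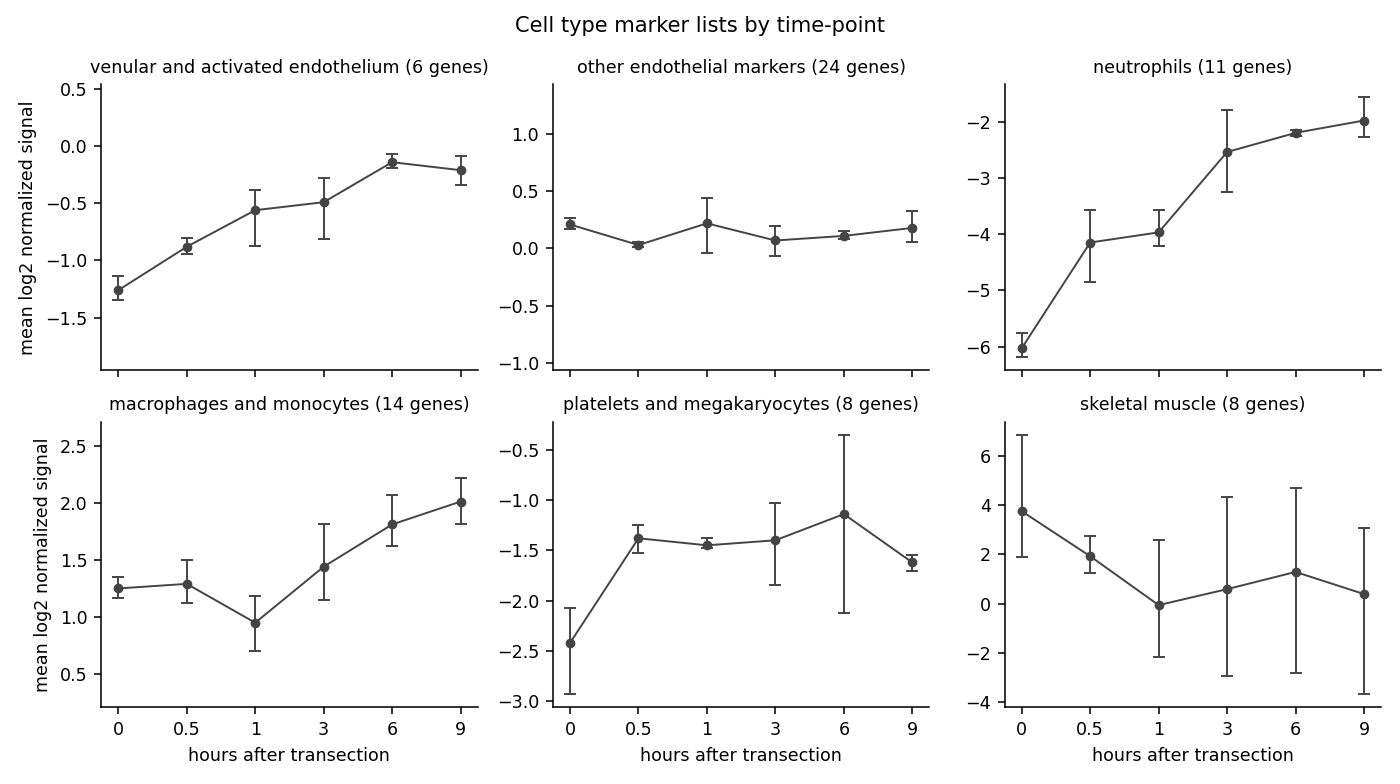
Mean log2 normalized signal of the tested genes of 6 marker lists (y axis, a scale of its own in each panel) at each time-point (x axis, hours after transection, not to scale). Points are means of 3 arrays and bars run from the lowest to the highest array. Array means of other endothelial markers stay between -0.07 and 0.44, neutrophil markers climb from about -6 to -2, and skeletal muscle markers spread widely within time-points.

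The genes whose pattern over the 18 arrays was most like that of a called member were named from 13453 gene names, by Pearson's r. For Icam1 they were Phlda1 and Ythdf1 (both r = 0.964) and Cxcl3 (0.960), a chemokine for neutrophils. For Selp they were Cebpz (0.910), Ube2d2b (0.903) and Rnps1-ps5 (0.898). For Sele they were Palmd (0.781), Rasip1 (0.775), a gene of endothelial junctions, and Kctd11 (0.733), and for Vcam1 Mill1 (0.872), Ncoa7 (0.866) and Fgfrl1 (0.863). The likeness to Sele was thus lower than for the other 3, and all of these r are descriptions over arrays that share time-point, scan day and scaling.

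**Figure D4:**
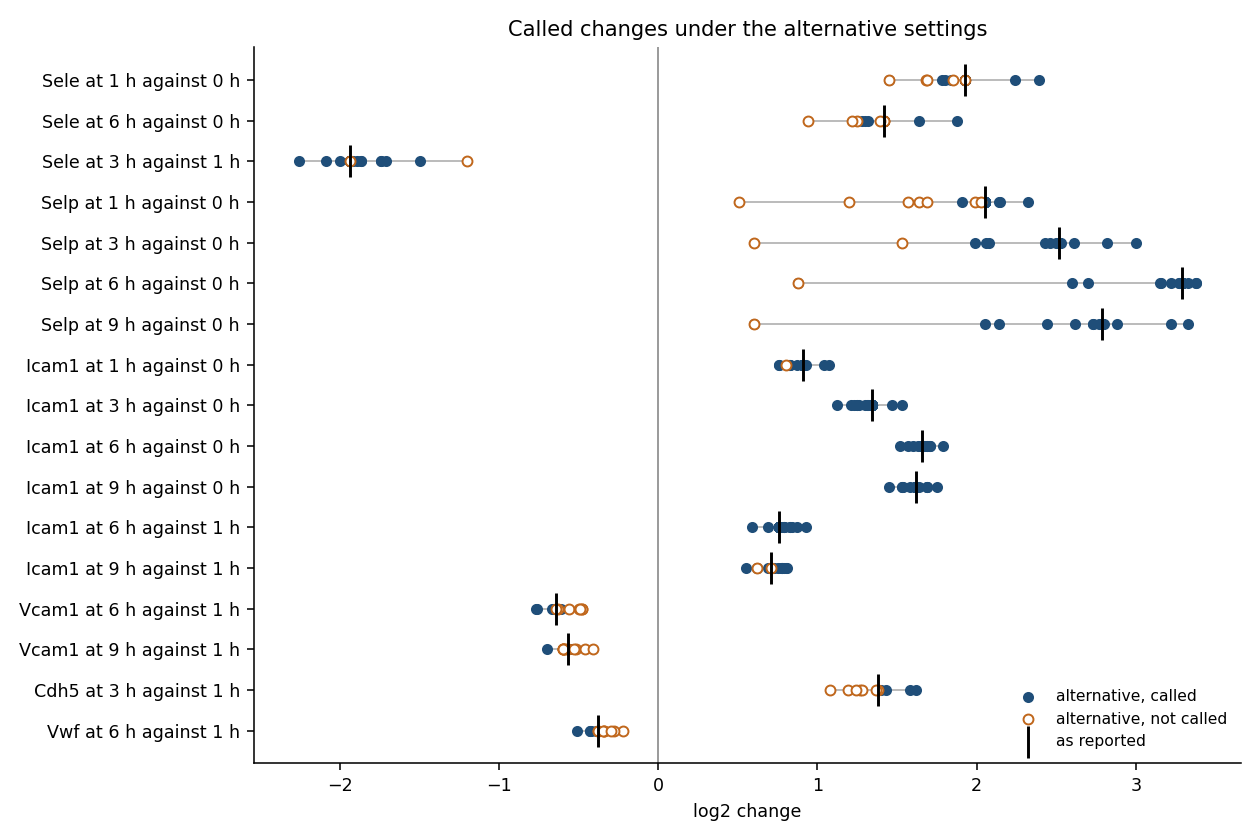
Log2 change (x axis) of each call of the 8 genes, as reported (black bar) and under each alternative setting (points). Filled points were called and open points were not, and no point crosses 0. The calls of Icam1 at 3 h, 6 h and 9 h against 0 h hold at every point, while those of Vcam1, Vwf and Cdh5 against 1 h and of Sele and Selp at 1 h include open points.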

How the data were processed

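For each array the authors deposited its scanner output, whose processed signal is a linear intensity that Agilent Feature Extraction (version 10.5.1.1 per the file headers, while the study's methods name an earlier one) had background-subtracted and detrended, with no scaling between arrays. A matrix of log2 values was also deposited, in which all arrays share a single distribution (median 7.75), quantile normalized before deposit, and which ranks probes as the scanner output does. It was used as an alternative, and 0 of its columns were left unused.

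Here control spots and outlier spots were dropped, log2 processed signals were shifted to each array's 75th percentile, and spots of a probe were averaged. A probe was tested (32111 of 41012) where some time-point had it well above background on each of its 3 arrays. Names came through the accession from RefSeq where it was held (16336 probes) and otherwise from the files. Of several probes of a gene, the tested one with the highest mean stood for it.

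All 18 arrays were fitted in 1 limma model without covariates (prior degrees of freedom 1.94). P-values without another name are limma's. The F-test stands in for the study's random variance F-test. For 200 changed probes among 32111 simulated for 6 h against 0 h, 54% of 2-fold and 84% of 4-fold changes were found, with 11 false calls. The simulated noise was independent and few probes changed, while 25.0% of gene names were called in the data. These shares therefore describe that simulated setting only. Median signals lay between 146 and 163 at 0 h and between 194 and 264 at 9 h, and precision is limited by the few arrays.

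The members, lists and tests were chosen with earlier results of these data known. Beside all members, the text names at most 5 genes a list, those called in the F-test with the largest change from 0 h, and the 3 genes most like each member called in the F-test. Some genes of the lists that this rule would name are not reported here, though they remain in the counts. Alternatives were normexp background correction (offset 50), other normalizations, filters, blocks, weights and thresholds, and each array left out in turn. Software was R 4.3.3, limma 3.58.1, Python 3.11.15, numpy 2.4.6, pandas 2.3.3 and matplotlib 3.10.9.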

Additional observations from a re-analysis of the deposited data

How the results depend on the processing

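Of the recomputed changes, those not called stayed uncalled with their sign in 619 of 670 cases and the called ones stayed called in 455 of 515, and no called change turned its sign. Normexp background correction moved more of the counts than any other setting. It called 1 gene over all time-points, 0 at 1 h and 1 at each of 3 h, 6 h and 9 h against 0 h, and against 1 h 0 at 3 h and 1 at each of 6 h and 9 h. It left the dim probes of replicate 2 of 1 h (5th percentile -1.79) and of 3 h (-0.91) above those of the other arrays (-4.77 to -3.91). With it Selp at 6 h and 9 h against 1 h turned to -0.32 and -0.60, and Sele at 3 h against 0 h to 0.48. Without those 2 arrays, a setting chosen after seeing the data, normexp called 1 at 3 h against 0 h, and 1 at 3 h and 1 at 9 h against 1 h.

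At 0.5 h the replicate block, array weights, scan day as a block and the arrays of the contrast alone each called 1 gene, Selp. The scan day block marked only replicate 3 of 9 h, so it equals leaving that array out. At 6 h against 3 h, the stricter background filter, array weights and the trend with a robust prior each called 1 gene, Sele. Against 1 h, array weights called 4 at 3 h and 1 at 6 h, the arrays of the contrast alone 0 at 3 h, 1 at 6 h and 0 at 9 h, and a shift to the median 1 at 6 h and 1 at 9 h. At 9 h against 1 h the scan day block called 1 and the second scan day alone 0, and a 2-fold minimum left 0 at 6 h and 0 at 9 h. With 1 array left out the counts lay between 3 and 5 over all time-points, 0 and 1 at 0.5 h, 1 and 3 at 1 h, then 2 and 3 at each later time. Against 1 h they lay between 1 and 3 at 3 h, 1 and 4 at 6 h, then 1 and 3 at 9 h, and for 6 h against 3 h between 0 and 1. Sele at 3 h against 0 h then lay between -0.49 and 0.45. The replicate block moved no other count of members by over 1.5 times, and it gave a call to Selp at 6 h against 1 h (adjusted P = 0.0332), Vcam1 at 3 h against 1 h (adjusted P = 0.0217) and Icam2 at 3 h against 0 h (adjusted P = 0.0488). Between arrays with the same number, deviations correlated at -0.261 to 0.565 across time-points, over 0.1 in 22 of 45 pairs. No value for arrays of different numbers is given, so whether arrays pair by number is not decided.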
